A study of Mus musculus with 14 samples.

Results

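The regions described here are H3K4me2 peaks that were called in 3 of 4 conditions and were missing from the list of the cells in which Mll1 deletion had been induced. A member was a peak of the DMSO H3K4me2 list on 1 of the 19 autosomes, at least 300 and under 5000 bp wide, that shared at least 1 bp with an H3K4me2 peak in MM-401 and in EtOH and no base with a peak in 4OHT. The DMSO list held 105136 H3K4me2 peaks, of which 60547 were autosomal and of that width. MM-401 and EtOH peaks both overlapped 50103 of these. The 2141 members were the peaks of this eligible set with no 4OHT peak, and they made up 4.27% of it. H3K4me2 in all 4 lists chose the members, so every H3K4me2 value below is a description without a test. Intervals beside single H3K4me2 shares hold counting error alone and take each peak as independent of its neighbours, as do the other intervals given.

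DMSO and MM-401 were given to MAF9 cells, which are mouse bone marrow cells transduced with the MLL-AF9 fusion and grown in IMDM with 15% FBS and IL-3 at 10 ng/ml. MM-401 was used at 20 µM for 2 days and DMSO was its solvent control. EtOH and 4OHT were given to MAF9-transduced bone marrow cells that were MLL1 flox/flox and ER-Cre+/-, called flox cells here, with 4OHT at 400 nM for 2 days and EtOH as its solvent control. All 4 groups therefore carried MLL-AF9, and the 2 pairs came from cells of different genotype. Each ChIP was 1 library made with 15 µl of antibody, so no spread between replicates could be measured and no p-value is given. H3K4me2 and WDR5 were mapped in all 4 conditions and MLL1 in DMSO and MM-401 only, so the loss of MLL1 in the flox cells could not be checked. The lists give mm9 positions without scores or read counts, so the depth was unknown and an absent peak is a peak that was not called. Of the 4 H3K4me2 lists, 4OHT was the shortest with 91305 peaks.

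H3K4me2 is a mark of active and poised promoters and enhancers, and broad blocks of it usually surround sites where transcription factors and the methylating complexes sit. MLL1 belongs to a family of methyltransferases that place H3K4 methylation, and the complexes of this family share WDR5, a core subunit. Cre fused to the estrogen receptor enters the nucleus once 4OHT binds it and then excises the floxed Mll1 exons. MM-401 instead blocks the contact of MLL1 with WDR5 and leaves the gene intact.

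To set a level for H3K4me2 that was missing from any 1 list, the rule was turned round for the other conditions. DMSO peaks absent only from EtOH, although called in MM-401 and 4OHT, numbered 1555 of 49517 eligible peaks (3.14%). DMSO peaks absent only from MM-401 numbered 1685 of 49647 (3.39%). The members' 4.27% was the highest of these 3 shares, which have 47962 peaks called in all 4 lists in common. The gap to the EtOH class moved with the way the lists were cut. With all 4 H3K4me2 lists reduced to their 91305 widest peaks there were 1959 members and 1815 peaks absent only from EtOH. With the widest 50% of each list there were 1832 and 784, and with a minimum width of 500 bp 1131 and 741. A further 1166 DMSO peaks were called in EtOH and were absent from both MM-401 and 4OHT.

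The members were narrow. Their widths in DMSO ran from 300 to 3350 bp, with a median of 500 bp and quartiles of 375 and 725 bp. Peaks called in all 4 lists had a median of 1225 bp. The peaks absent only from EtOH and only from MM-401 were of similar width, with medians of 475 and 425 bp. By width class, 1010 members were 300 to under 500 bp wide, 908 were 500 to under 1000 bp, 207 were 1000 to under 2000 bp and 16 were 2000 bp or wider.

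The share of eligible DMSO peaks that lacked a 4OHT peak fell with each step in width. In these 4 classes, from narrow to wide, it was 15.1% (95% Wilson interval 14.3 to 16.0), 6.82% (6.40 to 7.26), 1.12% (0.978 to 1.28) and 0.138% (0.0849 to 0.224). The same fall was seen for peaks absent only from EtOH, at 12.5%, 4.76%, 0.647% and 0.00863%. In the widest class this was 16 members against 1 peak absent only from EtOH, and 4 peaks absent only from MM-401. Just below the width limit of 300 bp, 464 of 2297 peaks in the next pair of 25 bp steps met the rest of the rule (20.2%), against 321 of 1907 peaks in the first pair of steps from 300 bp up (16.8%). Above the upper limit, 0 of 1610 peaks of 5000 bp or more did, which allows a share of up to 0.238% (95% Wilson bound).

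The 4OHT list often had H3K4me2 close by. The distance from a member to the nearest 4OHT H3K4me2 peak had a median of 2925 bp and an upper quartile of 12375 bp. A 4OHT peak lay within 1 kb of 798 members (37.3%), within 2 kb of 950 (44.4%, 95% Wilson interval 42.3 to 46.5), within 5 kb of 1261 (58.9%) and within 10 kb of 1522 (71.1%). The other 619 members (28.9%) had none within 10 kb, and 174 of them (8.13%) had none within 50 kb. The farthest was 1411825 bp away from H3K4me2 in 4OHT. At the limit of the rule, 121 members had a 4OHT peak at 0 to 25 bp, and 108 eligible DMSO peaks were kept out by a 4OHT peak that covered only 1 to 25 bp of them.

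Peaks absent only from EtOH lay at a similar median distance from the H3K4me2 of EtOH, and more of them lay very close to it. The median was 2875 bp, with quartiles of 200 and 12612.5 bp. Some 40.5% of them had an EtOH peak within 1 kb, beside 37.3% of the members with a 4OHT peak, and 8.87% beside 5.65% had one within 25 bp. Within 2 kb the shares were closer, as 709 of the 1555 (45.6%, 95% Wilson interval 43.1 to 48.1) had an EtOH peak there. Peaks absent only from MM-401, the drug-treated sample of the same cells as DMSO, lay closer to what remained, at a median of 350 bp with 77.0% within 2 kb (74.96 to 78.98). Some 91.9% of the members, 92.9% of the EtOH class and 99.8% of the MM-401 class were within 50 kb. The curves of cumulative distance for the members and the EtOH class stood apart below 1 kb and ran side by side beyond 2 kb.

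**Figure D1:**
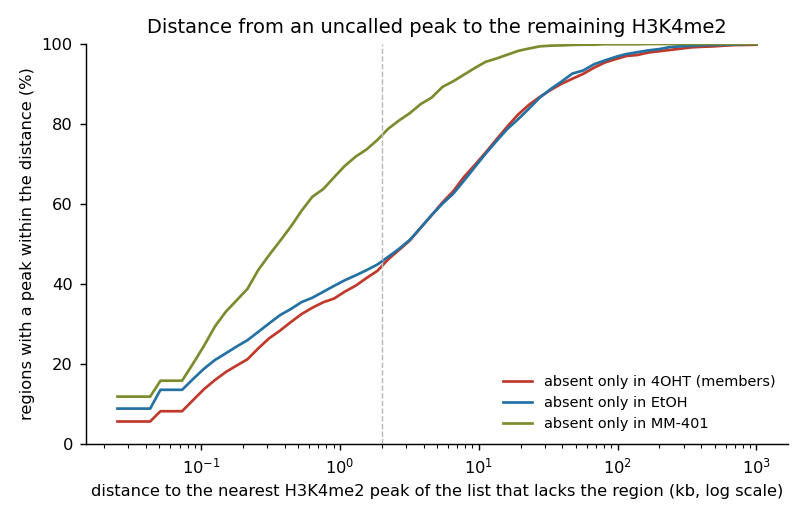
Share of regions (%) with an H3K4me2 peak within a given distance (kb, log scale) in the list that lacks them, for the 2141 members (4OHT list), 1555 peaks absent only from EtOH (EtOH list) and 1685 absent only from MM-401 (MM-401 list); the dashed line marks 2 kb. At 2 kb the curves stand at 44.4%, 45.6% and 77.0%.

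Members close to remaining H3K4me2 were of 2 kinds. At 302 members (14.1%, 95% Wilson interval 12.7 to 15.6) an EtOH peak over the member ran on into a 4OHT peak outside it. The widest EtOH peak over these members had a median width of 1000 bp, against 400 bp for their DMSO peaks. For these members the whole DMSO peak lacked a 4OHT peak, while an EtOH peak over it was still called in part. The other 648 members within 2 kb were covered by EtOH peaks that did not touch H3K4me2 in 4OHT. In the EtOH class the mirror count, 4OHT peaks that ran on into an EtOH peak, was 192 of 1555 (12.3%), and in the MM-401 class EtOH peaks ran on into an MM-401 peak at 611 of 1685 (36.3%).

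In DMSO itself the members were not alone. The next DMSO H3K4me2 peak lay at a median of 350 bp (quartiles 100 and 5425 bp), and 1345 members (62.8%) had one within 2 kb. This neighbour distance grew along with the distance to 4OHT H3K4me2. It was 125 bp at the median for members with an EtOH peak that ran on into a 4OHT peak. For the separate ones within 2 kb it was 200 bp. Farther out it was 2375 bp for the 572 members at 2 to 10 kb and 11425 bp for the 619 beyond 10 kb. For the 174 beyond 50 kb it was 14825 bp. Some members came in groups, as 165 of them fell into 81 runs of neighbours at most 10 kb apart with no 4OHT peak between them. Such runs were not counted for the other classes, so whether this is few or many is not known. Under EtOH 17 H3K4me2 peaks each lay over 2 members, which then share a peak. The longest runs held 3 members, at chr5:108946151-108949725, chr11:18903276-18904500 and chr17:34266501-34268000.

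The H3K4me2 called over the members was narrow in EtOH as well. The widest EtOH peak over a member had a median width of 250 bp (quartiles 150 and 400 bp), and EtOH peaks together covered a median of 38.1% of the DMSO peak. MM-401 peaks over the same members had a median width of 350 bp and covered 59.5%. At peaks called in all 4 lists the medians were 1750 bp and 97.0% in EtOH, and 1400 bp and 91.8% in MM-401. The EtOH peak was 200 bp or narrower at 922 members (43.1%) and 300 bp or narrower at 1402 (65.5%). The mirror class was alike, since the 4OHT peaks over the 1555 regions absent only from EtOH had a median of 225 bp and covered 38.2%.

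The median EtOH peak was no wider over the wider members. From the narrowest to the widest of the 4 width classes the median width in EtOH was 250, 225, 225 and 162.5 bp, while that in MM-401 was 300, 400, 725 and 1762.5 bp. At peaks called in all 4 lists the EtOH medians in these classes were 700, 850, 1700 and 3400 bp. The median part of the DMSO peak that EtOH covered fell from 47.4% in the narrowest members to 7.14% in the 16 widest, and the part that MM-401 covered was 60.6% and 84% in the same classes. Wider members also lay farther from remaining H3K4me2, at a median of 1062.5 bp for the narrowest class, 4575 bp and 6125 bp for the next ones and 7662.5 bp for the widest. The mirror class was again alike. Over its 3 narrower width classes the median 4OHT width was 225 bp in each, the MM-401 median was 375, 450 and 800 bp, and the median distance to EtOH H3K4me2 was 675, 5275 and 11200 bp.

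The same contrast between the cell lines was seen along the distance scale. Among members with a separate EtOH peak, the median EtOH width was 250 bp within 2 kb, 200 bp at 2 to 10 kb and 200 bp beyond 50 kb, where the DMSO and MM-401 medians were 612.5 and 637.5 bp. MM-401 peaks covered 53.8% of the member at the median within 2 kb, 57.6% at 2 to 10 kb, 71.4% beyond 10 kb and 83.7% beyond 50 kb. EtOH peaks covered 40%, 35.4%, 33.3% and 30% in the same order. The medians of the most isolated members were thus close in both MAF9 lists, and their EtOH peaks were the narrower ones. The rule itself starts from a MAF9 list and requires absence from a flox list. Whether the EtOH class shows the same along its distances was not examined.

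**Figure D2:**
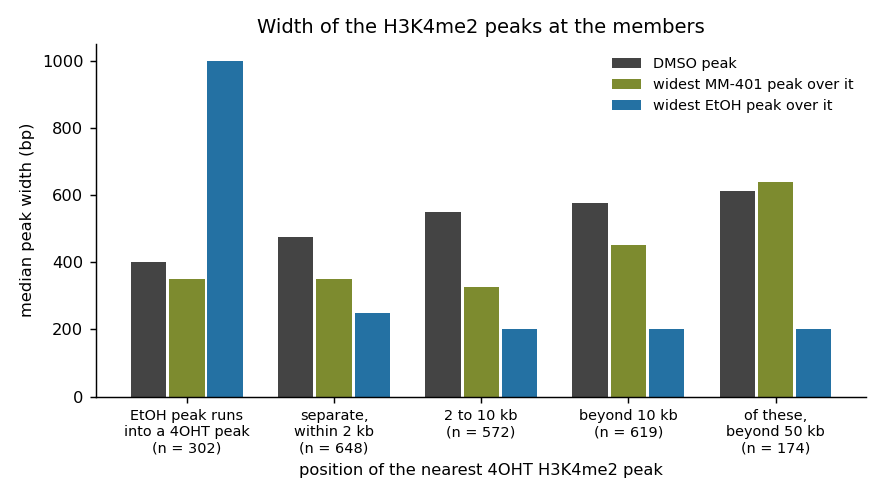
Median width (bp) of the DMSO peak and of the widest MM-401 and EtOH H3K4me2 peaks over it, for members grouped by the nearest 4OHT H3K4me2 peak (the last group is part of the one before it). Bars start at 0; EtOH stands at 200 bp beyond 50 kb, against 612.5 bp in DMSO and 637.5 bp in MM-401.

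Read from the EtOH list, absence in 4OHT followed the width of the EtOH peak. Of eligible DMSO peaks whose widest EtOH peak was 75 to 100 bp, 303 of 751 had no 4OHT peak (40.3%, 95% Wilson interval 36.9 to 43.9). The share was 32.6% for EtOH peaks above 100 and up to 200 bp, 20.1% up to 300 bp, 10.0% up to 500 bp, 2.56% up to 1000 bp and 0.471% above 1000 bp. The mirror shares, for EtOH peaks missing over 4OHT peaks of the same widths, were 30.3%, 23.9%, 15.5%, 6.26%, 1.496% and 0.183%. Both series fell at each step, and the members' share was the higher value in all 6. The 2 lists were unlike, with 91305 peaks of median width 375 bp in 4OHT and 100898 of 300 bp in EtOH. These shares were not recomputed with lists of equal length.

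**Figure D3:**
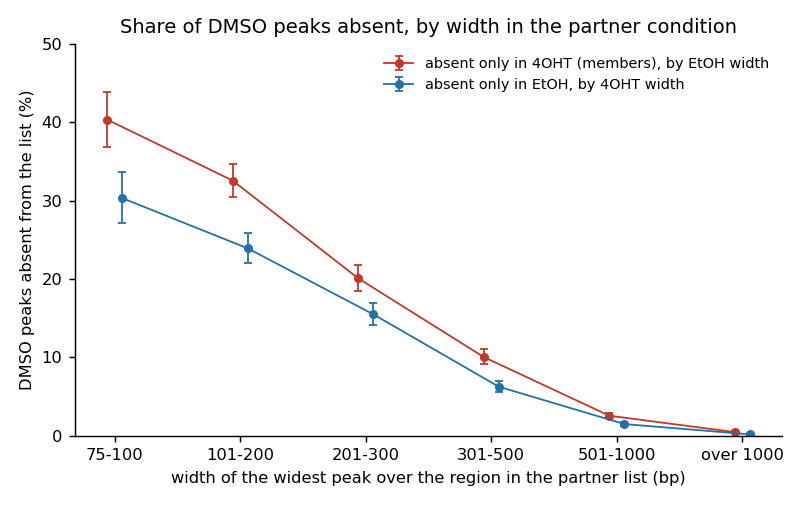
Share (%) of eligible DMSO H3K4me2 peaks absent only from 4OHT, by width (bp) of the EtOH peak over them, and of those absent only from EtOH, by width of the 4OHT peak; bars are 95% Wilson intervals for the counting of peaks. The shares run from 40.3% to 0.471% and from 30.3% to 0.183%.

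The 8 widest members show this in single regions. The widest, chr1:139822876-139826225 (mm9, 3350 bp), carried MM-401 peaks of up to 1225 bp over 64.2% of its length and EtOH peaks of at most 150 bp over 6.72%, and the nearest 4OHT H3K4me2 was 3650 bp away. The second, chr15:75260526-75263850 (3325 bp), was the most isolated of the 8. An MM-401 peak of 3250 bp lay over it, the EtOH peak was 150 bp wide, and no 4OHT H3K4me2 was called within 182175 bp. At chr9:62197376-62200250 (2875 bp) the MM-401 and EtOH peaks were 1625 and 125 bp wide and a 4OHT peak lay 1625 bp away.

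In 7 of these 8 regions the EtOH peaks were no wider than 200 bp. The exception was chr4:149149926-149152625 (2700 bp), where an EtOH peak of 3625 bp reached into the member and ran on into a 4OHT peak 200 bp away. At chr14:55682501-55684950 (2450 bp) a 4OHT peak ended 225 bp from the member, and a single MM-401 peak of 5625 bp ran across both. Within the 8 regions WDR5 was not called in any list. MLL1 was called once in DMSO, in chr5:32778251-32780875 (2625 bp), and once in MM-401, in chr17:15546051-15548775 (2725 bp). No annotation of the mm9 build was used here, so genes at these positions are not given.

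**Figure D4:**
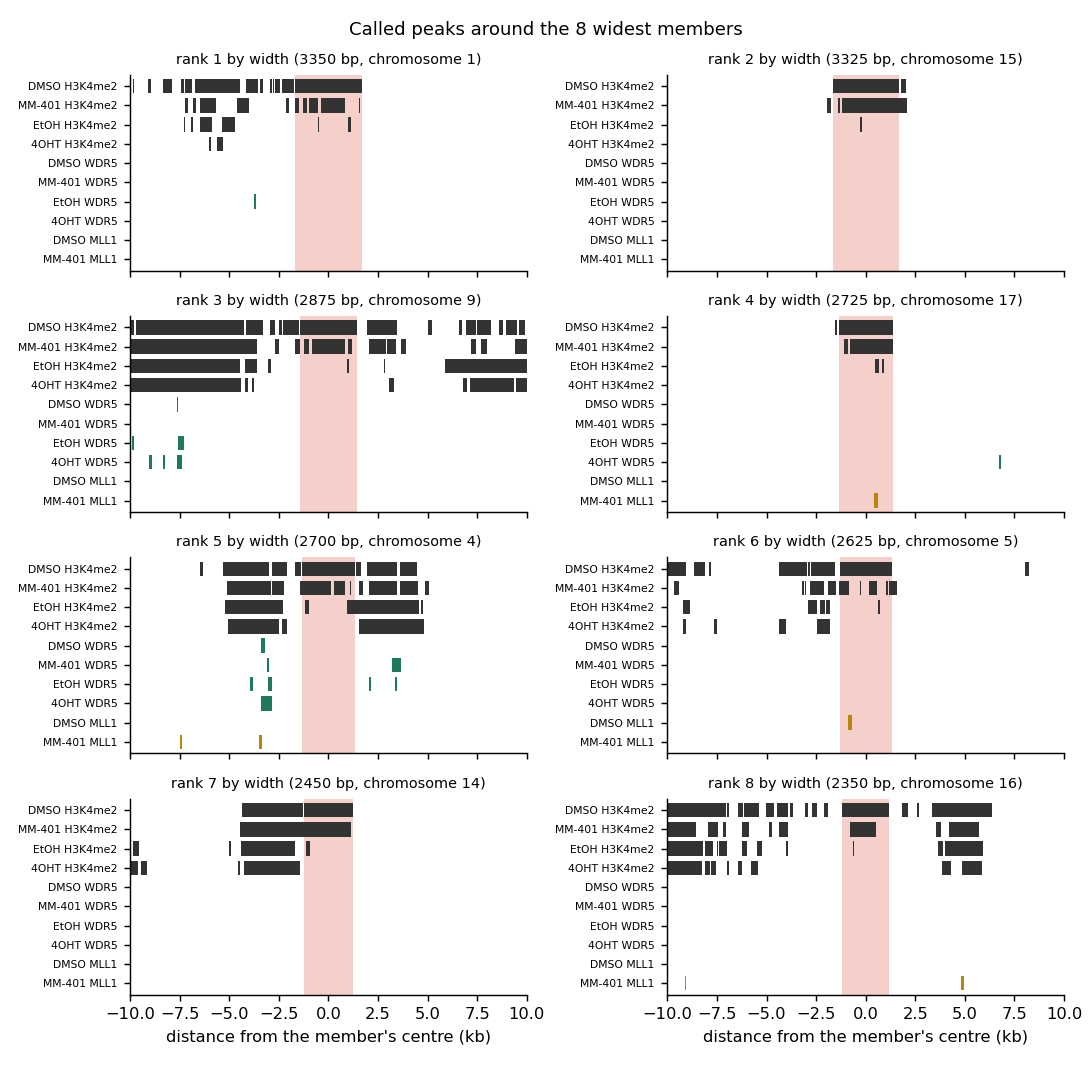
Called peaks within 10 kb of the centre of the 8 widest members, 1 row per list, with the member shaded; H3K4me2 in black, WDR5 in green, MLL1 in yellow. No 4OHT H3K4me2 block falls in the shading, the MM-401 row fills much of it, and EtOH blocks there are 200 bp or narrower except in the region of rank 5.

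The 8 most isolated members were at most 1275 bp wide and lay 614900 to 1411825 bp from 4OHT H3K4me2. The first, chr8:6191276-6191600, carried DMSO WDR5, and the second, chr8:6139901-6140325 (425 bp), carried DMSO MLL1. These 2 lay in the same stretch of chromosome 8 without 4OHT H3K4me2 and so are not separate cases. The other 6 had no WDR5 or MLL1 in any list. Their EtOH peaks were 100 to 475 bp wide. One of these, chr5:55702726-55703225 (500 bp), stood by itself in DMSO too, with its next DMSO H3K4me2 peak 1002950 bp away, and EtOH covered 95% of it.

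WDR5 was rarely called at the members. It overlapped 58 members in DMSO (2.71%, 95% Wilson interval 2.10 to 3.49), 93 in MM-401 (4.34%, 3.56 to 5.29), 50 in EtOH (2.34%, 1.78 to 3.07) and 60 in 4OHT (2.80%, 2.18 to 3.59). Over all 60547 DMSO H3K4me2 peaks of this width WDR5 overlapped 16.6%, 17.8%, 20.5% and 21.0% in the same lists, and at the peaks called in all 4 lists 20.3%, 21.8%, 25.4% and 25.9%. The members thus stood 17.6 points below the peaks called in all 4 lists for DMSO WDR5 (difference -17.6, 95% Newcombe interval -18.3 to -16.8) and 23.0 points below for EtOH WDR5 (difference -23.0, -23.7 to -22.2). The members were narrower than those peaks, and a narrow peak is met by fewer others.

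Within each width class the WDR5 share of the members was still the lower one in all 4 lists. In the narrowest class DMSO WDR5 overlapped 20 of 1010 members (1.98%) and 6.11% of the peaks called in all 4 lists (difference -4.13, -5.08 to -2.91), and EtOH WDR5 overlapped 20 (1.98%) against 7.43% (difference -5.45, -6.44 to -4.20). At 1000 to under 2000 bp the EtOH figures were 5 of 207 (2.42%) against 25.7% (difference -23.3, -24.8 to -20.1). Of the 16 members of 2000 bp and more, 2 had DMSO WDR5 and 0 had EtOH or 4OHT WDR5, which allows up to 19.4% (95% Wilson bound).

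The classes built by turning the rule round were as poor in WDR5. Peaks absent only from EtOH were overlapped at 3.67% in DMSO, 4.57% in MM-401, 3.22% in EtOH and 3.60% in 4OHT, and each interval of the difference from the members included 0 (DMSO -0.957, -2.17 to 0.177, and EtOH -0.880, -2.02 to 0.180). Among the narrowest peaks alone, DMSO WDR5 was less frequent at the members, at 1.98% against 3.69% (difference -1.71, -3.38 to -0.184). Peaks absent only from MM-401 had less WDR5 than the members in the MAF9 lists, at 0.9496% in DMSO (difference 1.76, 0.914 to 2.62) and 1.13% in MM-401 (difference 3.22, 2.21 to 4.25). In EtOH (2.31%) and 4OHT (3.38%) the intervals of that difference included 0.

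**Figure D5:**
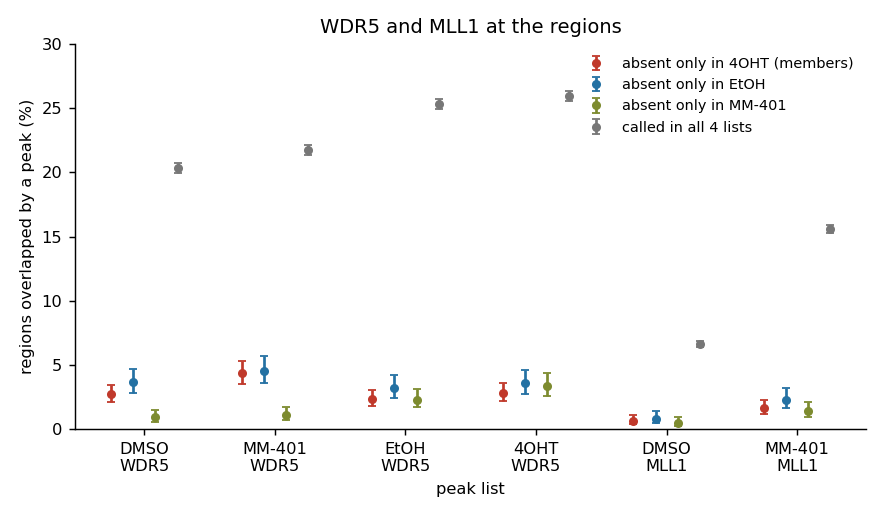
Share (%) of regions overlapped by a peak of each WDR5 or MLL1 list; points are shares and bars 95% Wilson intervals for the counting of peaks. The members lie between 0.654% and 4.34%, near the peaks absent only from EtOH, and the peaks called in all 4 lists lie between 6.64% and 25.9%.

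WDR5 was not called at fewer members in 4OHT than in EtOH. The 4OHT WDR5 list was also the longer one, with 41054 peaks against 34587, and the part of this in the counts was not tested. WDR5 was found in EtOH and not in 4OHT at 42 members (1.962%), and in 4OHT and not in EtOH at 52 (2.43%). Over all DMSO H3K4me2 peaks of this width these shares were 9.81% and 10.4%. In MAF9 cells 27 members (1.26%) had WDR5 in DMSO and not in MM-401 and 62 (2.90%) had it in MM-401 and not in DMSO, against 7.26% and 8.53%. The EtOH WDR5 peaks at members were also seldom found again: 8 of the 50 (16%, 95% Wilson interval 8.34 to 28.5) had WDR5 in 4OHT and 4 (8%) in DMSO. At peaks called in all 4 lists 52.8% of those with EtOH WDR5 had it in 4OHT. The narrow classes were low as well, at 7 of 39 (17.9%, 8.98 to 32.7) for peaks absent only from MM-401, 5 of 23 (21.7%, 9.66 to 41.9) for those absent from MM-401 and 4OHT, and 15 of 50 (30%, 19.1 to 43.8) for those absent only from EtOH. Of the 58 members with DMSO WDR5, 31 (53.4%, 40.8 to 65.7) had it in MM-401, close to the 56.3% at peaks called in all 4 lists.

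In all, 204 members (9.53%) had WDR5 in at least 1 list. It was called only in MAF9 cells at 102 of them, only in flox cells at 84 and in both at 18, and 1 member had it in all 4 lists. Neither this share nor this split was counted for other peaks, so neither is read as a trait of the members. Of the 58 members with DMSO WDR5, 4 (6.90%, 2.71 to 16.4) had it in EtOH. The like counts were 12 of 57 (21.1%, 12.5 to 33.3) in the EtOH class and 5 of 16 in the MM-401 class. They were 0 of 9 for peaks absent from MM-401 and 4OHT, and 53.7% for peaks called in all 4 lists. Among the widest members with WDR5 in EtOH and none in 4OHT, chr9:43912076-43914050 (1975 bp) carried an EtOH H3K4me2 peak of 225 bp and an MM-401 peak of 2375 bp, and 4OHT H3K4me2 began 2950 bp away. The next, chr8:111918676-111920400 (1725 bp), had EtOH and MM-401 peaks of 250 and 1650 bp and lay 30925 bp from 4OHT H3K4me2. None of the 8 widest regions of this kind had WDR5 in DMSO or MM-401 or MLL1 in either list.

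Along the distance scale the WDR5 share rose at each step in the MAF9 lists and not in the flox lists. This scale is the distance to a flox H3K4me2 list that the rule used. The EtOH class was not split by distance, so the values are a description of the members alone. DMSO WDR5 overlapped 1.89% of the 950 members within 2 kb of 4OHT H3K4me2, 2.80% at 2 to 10 kb and 3.88% beyond 10 kb, and MM-401 WDR5 overlapped 2.95%, 4.72% and 6.14%. EtOH WDR5 overlapped 2.21%, 3.67% and 1.29% in the same groups, and 4OHT WDR5 3.16%, 2.80% and 2.26%. In each list the 95% Wilson intervals at 2 to 10 kb and beyond 10 kb overlapped. They were 1.73 to 4.50 and 2.62 to 5.70 in DMSO, and 2.41 to 5.55 and 0.656 to 2.53 in EtOH. Of the 174 members beyond 50 kb, 9 had WDR5 in DMSO (5.17%, 95% Wilson interval 2.74 to 9.54) and 16 in MM-401 (9.20%, 5.74 to 14.4). EtOH and 4OHT had WDR5 at 1 of them each (0.575%, 0.102 to 3.18). The MAF9 WDR5 lists were the shorter ones, with 14481 and 17273 peaks against 34587 in EtOH and 41054 in 4OHT. Members beyond 50 kb also had the widest DMSO and MM-401 H3K4me2 of these groups at the median, as given above. The part of this in the WDR5 values was not tested.

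WDR5 was also counted within 2 kb of the members, overlapping peaks included. It was called at 162 members in DMSO (7.57%), 224 in MM-401 (10.5%), 250 in EtOH (11.7%) and 284 in 4OHT (13.3%). The median distance from a member to WDR5 was 23475 bp in DMSO, 20525 bp in MM-401, 13625 bp in EtOH and 11075 bp in 4OHT. For peaks called in all 4 lists these medians were 11550, 9600, 4575 and 3575 bp. The MM-401 class, which had less MAF9 WDR5 on its peaks, had more DMSO, EtOH and 4OHT WDR5 nearby than the members. Within 2 kb the shares were 10.4% in DMSO (members minus this class -2.88, 95% Newcombe interval -4.75 to -1.06), 19.9% in EtOH (-8.20, -10.6 to -5.88) and 22.8% in 4OHT (-9.52, -12.0 to -7.07). In MM-401 the share was 11.8% and the interval included 0 (-3.39 to 0.649). Their median distances were 11950, 10575, 5950 and 5175 bp. For peaks absent only from EtOH all 4 intervals of the difference within 2 kb included 0.

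MLL1 was called at fewer members still. Its DMSO list overlapped 14 members (0.654%, 95% Wilson interval 0.390 to 1.09), against 5.38% of all DMSO H3K4me2 peaks of this width and 6.64% of the peaks called in all 4 lists (difference -5.98, 95% Newcombe interval -6.33 to -5.49). The MM-401 list, which came from another peak caller and was longer, overlapped 36 members (1.68%, 1.22 to 2.32), against 12.7% and 15.6% (difference -13.9, -14.5 to -13.2). No member had MLL1 in both lists, a count that was not made for other peaks and is not read as a trait of the members. In the narrowest class DMSO MLL1 overlapped 0.594% of the members and 0.792% of the peaks called in all 4 lists, and the interval of this difference included 0 (-0.615 to 0.526). At 500 to under 1000 bp and at 1000 to under 2000 bp the DMSO intervals lay below 0 (-1.75 to -0.753 and -5.12 to -0.940). In the widest class the DMSO interval included 0 (-15.0 to 12.3). The MM-401 intervals lay below 0 in every class under 2000 bp (-1.96 to -0.552, -3.65 to -1.55 and -13.9 to -10.1). Of the 16 widest members, 5 had MM-401 MLL1 (31.3%, 14.2 to 55.6), beside 35.6% of the peaks of that width called in all 4 lists, and this interval included 0 as well (-21.4 to 20.0). Peaks absent only from EtOH had MLL1 at 0.836% in DMSO and 2.32% in MM-401, with both intervals of the difference from the members including 0 (-0.828 to 0.379 and -1.62 to 0.268).

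Of the 14 members with DMSO MLL1, 1 also had DMSO WDR5. This was chr1:157011676-157012975 (1300 bp), where WDR5 was called in MM-401 as well and in neither flox list, the EtOH and MM-401 H3K4me2 peaks were 650 and 1000 bp wide, and 4OHT H3K4me2 lay 4525 bp away. At the others among the 8 widest members with DMSO MLL1, EtOH peaks were 75 to 200 bp wide. The next widest after chr5:32778251-32780875 was chr4:40823451-40824875 (1425 bp), with 4OHT H3K4me2 at 100 bp. Counted over all 6 WDR5 and MLL1 lists, 1897 members (88.6%, 95% Wilson interval 87.2 to 89.9) had neither factor in any list. This was so for 86.9% of the peaks absent only from EtOH, 91.9% of those absent only from MM-401 and 45.7% of the peaks called in all 4 lists.

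The members were spread over all 19 autosomes, with the largest share on chromosome 1. There, 223 of 3332 eligible peaks were members (6.69%, 95% Wilson interval 5.89 to 7.59), against 4.10% on the other autosomes (3.92 to 4.28). The second highest share was 5.67% on chromosome 13, and the lowest was 3.28% on chromosome 7. Peaks absent only from EtOH also had a higher share on chromosome 1, at 5.56% against 2.97%, while those absent only from MM-401 had a lower share there, at 2.23% against 3.47%. Without chromosome 1 there were 1918 members and 1372 peaks absent only from EtOH.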

How the data were processed

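ChIP-seq libraries of MLL1, WDR5 and H3K4me2 were analysed as 10 peak lists, with 1 library per condition and antibody, and the 4 inputs were not used. Per the submitters' processing notes reads were aligned with Bowtie to mm9. The deposited files used here hold peak positions, with no score or count. Per the file headers and names, 9 lists lie on a 25 bp grid and were called with HPeak, and they were read as 1-based. The DMSO MLL1 list has no grid, the study's methods describe MACS for it, and its starts were read as 0-based. The study states a significance cutoff for MACS. Thresholds for HPeak are not given in the sources used here.

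Positions were compared with Python 3.11.15 and numpy 2.4.6. Overlap meant at least 1 shared bp, and distance counted the bases between 2 peaks. Where several peaks lay over a member, the widest gave the width and all of them the covered part. Shares carry 95% Wilson intervals and differences in WDR5 or MLL1 95% Newcombe intervals. The code was tested on simulated lists and against bedtools 2.31.1. Figures were drawn with matplotlib 3.10.9.

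The members, lists and comparisons were chosen with earlier results of these data known. Regions named by position were the 8 widest members, the 8 farthest from 4OHT H3K4me2, the 8 widest with DMSO MLL1, and the 8 widest with EtOH and no 4OHT WDR5, passing over chromosome 18; runs of members were named after their positions were seen. The alternatives changed the overlap rule, the width limits, the list lengths, the starting list and the requirements on MM-401 and EtOH. Leaving out chromosome 1 was added after the data were seen.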

Additional observations from a re-analysis of the deposited data

Results flagged for a closer look

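WDR5 at the 572 members lying 2 to 10 kb from 4OHT H3K4me2 went down in flox cells and up in MAF9 cells. It fell by 0.874 percentage points from EtOH to 4OHT (3.67% to 2.80%, or -0.874 points) and was 1.92 points higher in MM-401 than in DMSO (2.80% to 4.72%). With 1 library per condition this difference was not tested. Over all members, within 2 kb and beyond 10 kb the share was higher after treatment in both cell lines. The treated WDR5 list was the longer one in both pairs, with 17273 peaks against 14481 in MAF9 cells and 41054 against 34587 in flox cells.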

How the results depend on the processing

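Of 63 values obtained under 11 alternatives for 7 results, 37 stayed near the reported value and 26 did not: counts were compared within 1.5 times, shares with their 95% Wilson interval, and the median width with its 95% order-statistic interval of 500 to 525 bp. Without the MM-401 requirement there were 3307 members, 53.4% of them within 2 kb of 4OHT H3K4me2, with a median width of 450 bp. With a minimum width of 500 bp there were 1131 members and 741 peaks absent only from EtOH, 34.7% of the members lay within 2 kb and their median width was 725 bp. Requiring 50% of the DMSO peak to be covered put 90.2% within 2 kb, with a median width of 625 bp, WDR5 at 5.32% in EtOH and 7.21% in 4OHT, and DMSO MLL1 at 1.34%, since a peak that 4OHT covers in part then counts as absent. With the widest 50% of each list the peaks absent only from EtOH dropped to 784 beside 1832 members, 26.7% of the members lay within 2 kb, their median width was 800 bp, and WDR5 overlapped 5.13% in EtOH and 6.60% in 4OHT and MLL1 1.36%. Starting from EtOH peaks gave 72.4% within 2 kb, a median width of 375 bp, EtOH WDR5 at 3.89% and MLL1 at 0.347%. These values, the width included, are for EtOH peaks and not for DMSO peaks. With EtOH peaks that run into a 4OHT peak left out, 35.2% lay within 2 kb. Counting WDR5 or MLL1 up to 2 kb away gave 11.7% in EtOH, 13.3% in 4OHT and 3.08% for MLL1. Where no construction is given, the cause was not tested. Counting peaks up to 2 kb apart as overlapping sets the share within 2 kb to 0 by its own construction and gave no value for it. No paired analysis was possible because each condition and antibody had 1 library. Depth was unknown, so a peak under a caller's threshold cannot be told apart from a peak that is gone.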
